A study of Mus musculus with 54 samples.

Results

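The measurements below concern 7 metabolic genes of the kidney proximal tubule (PT), Pck1, G6pc, Fbp1, Pcx, Gatm, Ass1 and Miox, which were taken by name from the 33126 gene symbols listed in at least 1 library of the series. The rule that picks them uses names and no measured value. They were followed through 39 droplet libraries of cells or nuclei (10x Genomics Chromium) and 15 bulk RNA-seq libraries of adult mouse kidney, which fall into 18 groups of 3 libraries. Kidneys came from untreated animals in 3 experiments. In the first, kidneys of 19-week-old male AFAPIL.1DEL C57BL/6J littermates were digested either at 37 °C (warm dissociation) or on ice with a cold-active protease (cold dissociation), and each suspension was profiled fresh, after cryopreservation for 6 weeks or after methanol fixation for 3 months, with chemistry v2; the fresh suspensions were also sequenced in bulk after rRNA depletion. In the second, 18-week-old male Balb/c littermates gave cold-dissociated fresh cells, sorted nuclei washed by 3 spins at 500g (3x500g) and bulk libraries of intact kidney, with chemistry v2 and rRNA depletion. In the third, former breeder Balb/c females (wild type, aged 15 weeks) gave cold-dissociated cells profiled fresh or after cryopreservation for 2 weeks, 3x500g nuclei, sorted nuclei washed with 1 spin at 2000g (1x2000g), unsorted nuclei from a sucrose gradient, and poly(A) bulk libraries of intact kidney and of cold-dissociated suspensions, with chemistry v3 for the droplet libraries. Strain, AFAPIL.1DEL designation and age differ between the experiments on males, and sex, age and chemistry between the 2 Balb/c experiments. Comparisons below that cross experiments are named as such.

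Besides the liver, the kidney is the organ that releases new glucose into the blood, and it does so in the proximal tubule, mainly from lactate, glutamine and glycerol. Pyruvate carboxylase (Pcx) turns pyruvate into oxaloacetate in the mitochondrion, cytosolic phosphoenolpyruvate carboxykinase (Pck1) turns oxaloacetate into phosphoenolpyruvate, fructose-1,6-bisphosphatase (Fbp1) reverses the committed step of glycolysis, and the catalytic subunit of glucose-6-phosphatase (G6pc) frees glucose in the endoplasmic reticulum. The same tubule makes arginine from citrulline through argininosuccinate synthase (Ass1), starts creatine synthesis from arginine and glycine through glycine amidinotransferase (Gatm), and breaks down myo-inositol through myo-inositol oxygenase (Miox), an enzyme largely restricted to the kidney.

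On GRCm38 in the GENCODE annotation, Pck1 lies at chr2:173153048-173159273 on the + strand and spans 6226 bases, and G6pc lies at chr11:101367561-101377903 on the + strand and spans 10343 bases. Fbp1 is at chr13:62864753-62888282 on the − strand (23530 bases) and Gatm at chr2:122594467-122611303 on the − strand (16837 bases). Ass1 occupies chr2:31470207-31520672 on the + strand (50466 bases), Miox chr15:89334398-89337015 on the + strand (2618 bases) and Pcx chr19:4510472-4621752 on the + strand (111281 bases), where it overlaps Lrfn4 on the other strand. All 7 are protein-coding. The levels of Ass1 carry an extra uncertainty, because the single-exon pseudogene Gm5424 at chr10:62071123-62072362 matches 1240 bases of the Ass1 transcript at 99.5% identity, and reads may be split between the 2 loci.

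Of the 7 genes, 3 hold the letters GTTAAT, part of the HNF1 motif; HNF1 is a factor family of the proximal tubule and liver. The match was searched on either strand within the 250 bases upstream of the start site in RefSeq, and these 3 promoters are shown because they hold it. The RefSeq start of each of the 3 lies downstream of the GENCODE start given above, so that the end of each window, with the TATAAA of G6pc and Miox, falls inside the GENCODE span. They are RefSeq sequences of GRCm38.p6, printed 5′ to 3′ on the gene's own strand, which is the + strand for each: Pck1 at chr2:173152823-173153072, G6pc at chr11:101367466-101367715 and Miox at chr15:89334223-89334472. Capitals mark GTTAAT (or its reverse complement) and, further downstream, the cAMP response element TGACGTNA in Pck1 or the TATA motif TATAAA in G6pc and Miox.
Pck1: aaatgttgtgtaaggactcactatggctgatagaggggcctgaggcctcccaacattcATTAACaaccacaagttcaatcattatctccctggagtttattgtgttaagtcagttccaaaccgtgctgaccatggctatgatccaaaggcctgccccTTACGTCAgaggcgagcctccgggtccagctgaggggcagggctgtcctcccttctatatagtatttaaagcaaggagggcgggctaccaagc
G6pc: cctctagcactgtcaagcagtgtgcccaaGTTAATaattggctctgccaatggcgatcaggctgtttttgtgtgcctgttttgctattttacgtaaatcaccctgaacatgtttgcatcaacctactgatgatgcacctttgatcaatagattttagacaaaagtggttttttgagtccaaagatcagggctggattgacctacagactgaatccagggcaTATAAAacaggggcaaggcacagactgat
Miox: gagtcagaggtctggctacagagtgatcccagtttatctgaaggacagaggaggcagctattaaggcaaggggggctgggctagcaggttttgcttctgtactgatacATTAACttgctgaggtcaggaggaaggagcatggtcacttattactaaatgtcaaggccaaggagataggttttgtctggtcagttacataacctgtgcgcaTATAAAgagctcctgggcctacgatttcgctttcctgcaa
GTTAAT begins 192 bases before the start site in Pck1, 221 in G6pc and 142 in Miox, and 6.43% of 32841 promoters of this length hold it. The cAMP response element of Pck1, whose gene is known to respond to glucagon and acidosis, begins 93 bases upstream and does not overlap it; 2.52% of promoters hold such a match. TATAAA begins 29 bases upstream in G6pc and 40 in Miox, against 12.4% of promoters with a match. The HNF4 core CAAAGTCCA, searched in the same way on both strands, was in none of the windows of the 7 genes and in 0.384% of all promoters. These matches describe letters only and were not tested for use in these cells.

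The bulk libraries held 2326998 to 31093949 reads assigned to genes. Droplet libraries held 782 to 9308 barcodes each and 983522 to 35170947 molecules counted by unique molecular identifier (UMI), with a median of 343 to 3893.5 UMIs per barcode. Levels in the droplet libraries are given as UMIs scaled to 1000000 non-mitochondrial UMIs (CPM), summed over the barcodes of a class in 1 library. Barcodes were clustered without the 7 genes or their pathway neighbours, and clusters were named from markers of kidney cell types, so that "PT-like" rests on genes such as Slc34a1 and Lrp2 (transporter and endocytic receptor of the brush border) and not on the genes described here. The label held in every group except the cryopreserved C57BL/6J cells: PT-like sums of the other 11 groups had 13 to 15 of the 15 PT markers above 0, with a summed level between 9175 and 21515 CPM. In the 6 cryopreserved C57BL/6J libraries only 2 to 8 barcodes per library were PT-like and 10 to 13 markers were at 0. Any 2 of the 39 libraries shared between 0% and 2.05% of the barcode sequences of the smaller one. A difference between sums over whole suspensions or bulk tissue can reflect fewer cells of a type or less RNA per cell, and these cannot be told apart.

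In PT-like sums of fresh cold-dissociated cells, all 7 genes were measured in every library, and the levels differed between the experiments most for Ass1, Miox and Pck1. Pck1 stood at 752, 807 and 572 CPM in the 3 C57BL/6J libraries, 542, 540.3 and 737 in the Balb/c male libraries and 1674, 2015 and 1197 in the Balb/c female libraries. Miox was at 5724, 4567 and 4586, at 2119.7, 2428 and 1708 and at 7840.3, 7101 and 8079 CPM in the same order. Ass1 was at 5755, 4523 and 4988, at 2700.4, 2610.1 and 2399 and at 1457, 1442 and 1485 CPM. For these genes the libraries of the 3 experiments did not overlap, except for Pck1, whose C57BL/6J and Balb/c male libraries did. Gatm was close in all 3, with means of 2970.4 ± 597, 3284 ± 249 and 3025 ± 133 CPM (SD, n = 3), and its libraries overlapped. Fbp1 had means of 1515 ± 144, 1486 ± 246 and 1929 ± 88.2 CPM, with only the female libraries apart from the others. G6pc, the enzyme of the last step, was at 217 ± 29.9, 184 ± 27.4 and 263 ± 35.4 CPM. Pcx was at 320.0 ± 44.8, 176 ± 10.3 and 151 ± 12.7 CPM, the C57BL/6J libraries being above all others. Strain, AFAPIL.1DEL designation and age cannot be told apart between the C57BL/6J and Balb/c male libraries. Nor can sex, age and chemistry between the Balb/c male and female libraries.

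**Figure D1:**
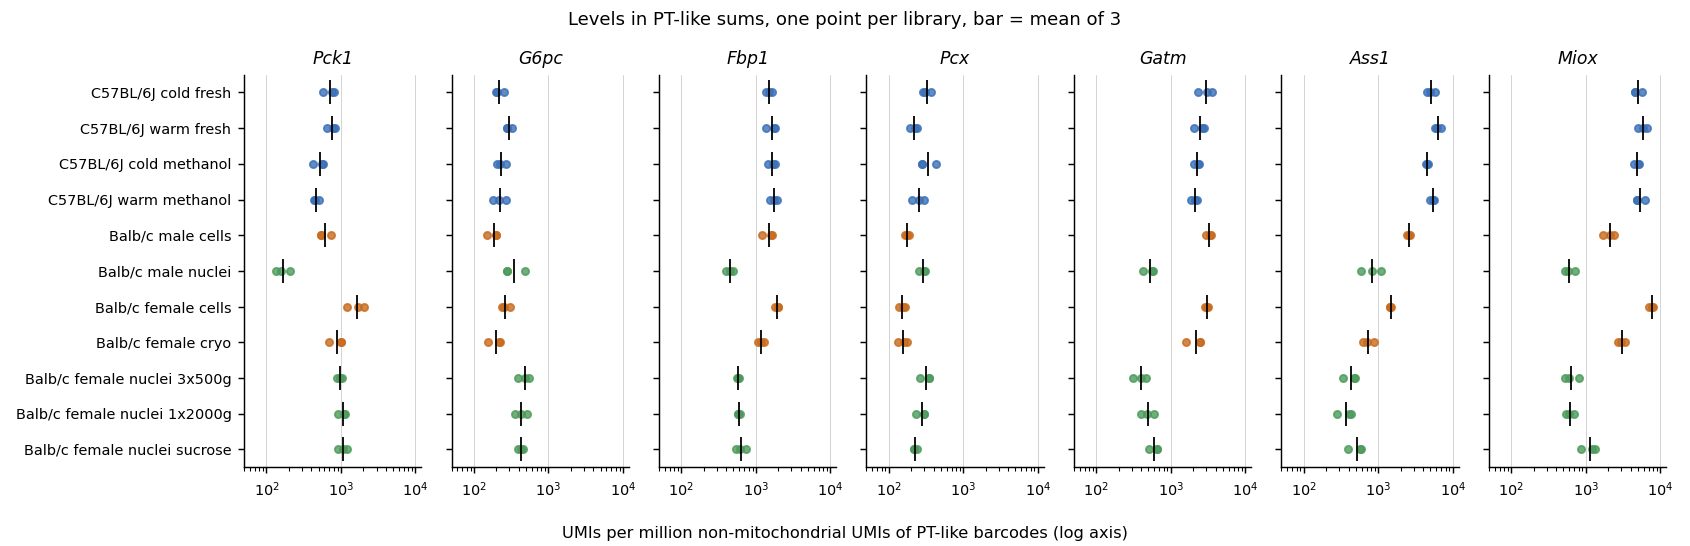
PT-like level of each gene in CPM (log axis), with 1 point per library and a bar at the mean of 3 libraries; C57BL/6J groups are blue, Balb/c cells orange and Balb/c nuclei green. Fbp1, Gatm, Ass1 and Miox sit to the left in nuclei, while G6pc and Pcx do not: Gatm in Balb/c female cells is 3025 ± 133 CPM and in 3x500g nuclei 392 ± 79.5 CPM.

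Within the proximal tubule the genes divided along its length. Clusters carrying markers of the early and middle segments (S1/S2-like) held far more Gatm than clusters with markers of the straight segment (S3-like): 4221 against 709 CPM in cold-dissociated C57BL/6J cells, 6086 against 440.4 in Balb/c male cells, 1274 against 70.1 in male nuclei and 1192 against 18 in female 3x500g nuclei (means of 3 libraries). G6pc was also higher in S1/S2-like clusters, at 330.1 against 168 CPM in C57BL/6J cells and 594 against 102 CPM in female nuclei. Ass1 and Miox showed the same order, wider in nuclei (739 against 122 and 463 against 64.1 CPM in female nuclei) than in C57BL/6J cells (4815 against 3358 and 4695 against 3622 CPM). Pck1 had the opposite order in 3 of the 4 groups: 683 against 861 CPM in C57BL/6J cells, 503 against 858 in male cells and 114 against 204 in male nuclei, but 829 against 686 in female nuclei. Pcx was at 367 against 283 CPM in C57BL/6J cells and 291 against 277 CPM in female nuclei, and Fbp1 at 1335 against 1145 and 1008 against 1155 CPM in C57BL/6J and Balb/c male cells, which is no common order. These are descriptions of clusters, with no test. The share of PT-like barcodes in S1/S2-like clusters was 17.1% to 20.7% in Balb/c male cells and 33.6% to 38.6% in male nuclei, and no S3-like cluster was found among Balb/c female cells.

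**Figure D2:**
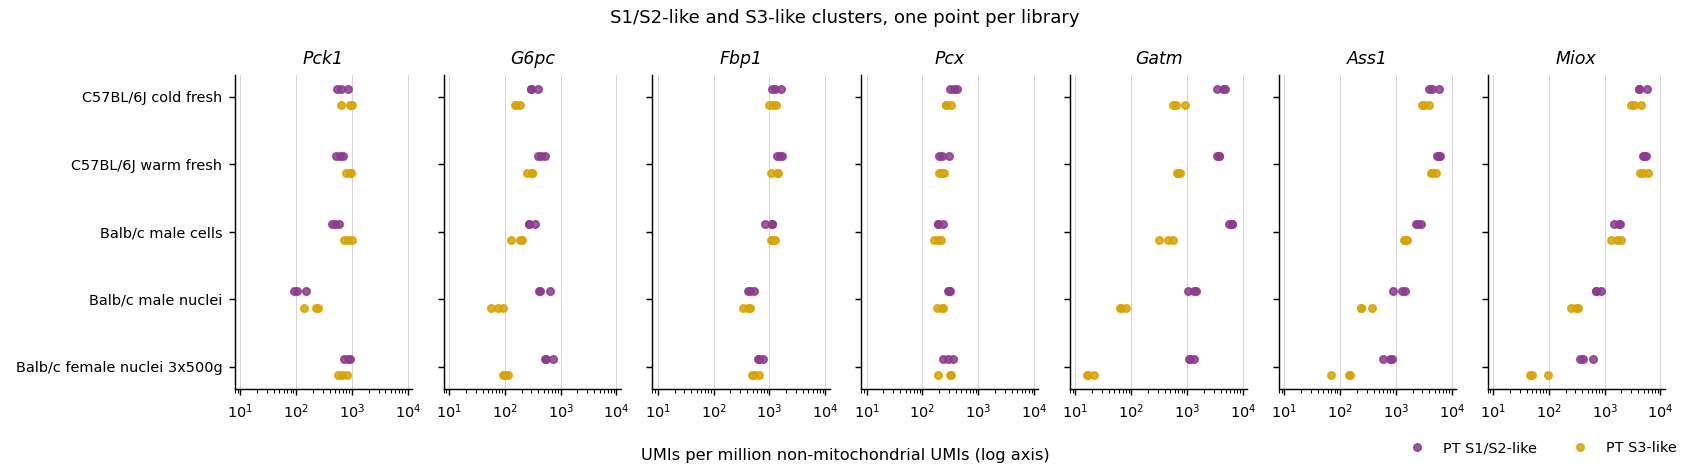
Level of each gene in S1/S2-like and S3-like clusters in CPM (log axis), 1 point per library, for 5 groups in which both kinds of cluster were found. Gatm separates the segments in every group, from 4221 to 709 CPM in cold-dissociated C57BL/6J cells, and Pck1 lies to the right in S3-like clusters of C57BL/6J and Balb/c male libraries.

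Outside the proximal tubule the genes were measured as well, mostly at lower levels than in PT-like sums. In cold-dissociated fresh C57BL/6J libraries, endothelial-like sums held 329, 503 and 665 CPM of Miox, 401, 519 and 774 of Ass1 and 35.9, 65.1 and 83.5 of Pck1. The same sums held 827 to 1629 CPM of the 15 PT markers together, against 13264 to 13650.3 CPM in PT-like sums. The part that free PT-derived RNA has in these levels was not tested. Gatm had a higher level in macrophage-like than in endothelial-like sums. It stood in the former at 559.8, 649.7 and 924 CPM in C57BL/6J, 1300.5, 1592 and 2434 in Balb/c male and 746, 762 and 826 in Balb/c female fresh cells, against 156, 258 and 489.9, 375, 593 and 771 and 168, 475 and 263 CPM in endothelial-like sums of the same libraries; each macrophage-like library was above its endothelial-like counterpart. PT markers also summed to more in macrophage-like than in endothelial-like sums in 7 of these 9 libraries, at 908 to 2465 CPM in C57BL/6J, 611 to 3092 in Balb/c male and 616 to 1762 in Balb/c female macrophage-like sums. The library with 2434 CPM of Gatm had the highest of these, and its macrophage-like sum held 15202 UMIs. The part of PT-derived RNA in these levels was not tested. In the fresh C57BL/6J libraries Ass1 and Miox were at a similar macrophage-like level, with means of 784 and 748 CPM against 711 for Gatm. In macrophage-like sums of cryopreserved C57BL/6J libraries after cold dissociation, Gatm was at 284, 197 and 260.5 CPM, Ass1 at 17.1, 63.6 and 36.7 and Miox at 27.3, 34.7 and 14.7. The same sums held 3.42 to 37.6 CPM of PT markers, with 12 to 14 of 15 at 0. Over all barcodes of these libraries 10 to 13 were listed at 0. A gene in fewer than 10 barcodes of a library is listed at 0 there, so these marker sums can be too low. The part of PT-derived RNA in the Gatm level was not tested here either. After warm dissociation the cryopreserved macrophage-like sums held 219, 175 and 212 CPM of Gatm. Endothelial-like sums of Balb/c male nuclei held 9002 to 13250.3 CPM of PT markers, so the levels of the 7 genes there are not read as those of endothelial nuclei. Pcx was at 262 ± 60.5 CPM in thin limb-like nuclei of the Balb/c female 3x500g libraries, against 317 ± 49.0 CPM in PT-like nuclei; in thin limb-like Balb/c female cells it was at 25.1 ± 5.05 CPM. Among the Balb/c female cells, 1077 barcodes of 1 cluster, with a median UMI count of 0.247 times that of their libraries, had Ass1, Miox, Gatm, Fbp1 and Pck1 among their 10 leading genes but stayed unnamed and outside the PT-like class.

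**Figure D3:**
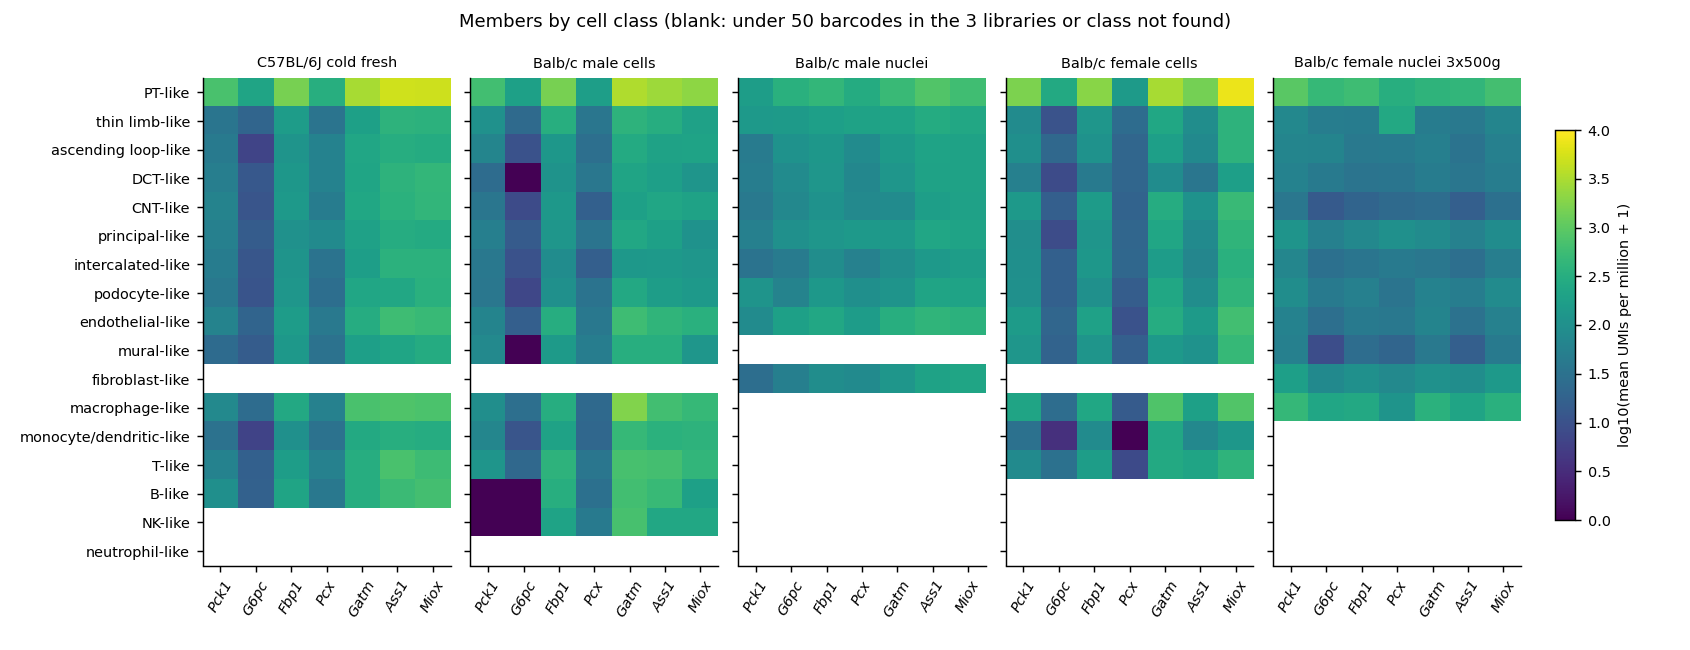
Mean level of each gene (columns) by cell class (rows) in 5 groups, as log10 of mean CPM plus 1; blank cells had under 50 barcodes in the 3 libraries or no such class. The PT-like row is brightest in every panel, and Gatm in the macrophage-like row reaches 1775 CPM in Balb/c male cells.

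Bulk libraries allow the genes to be ordered by level, given as CPM (here reads scaled to 1000000 reads) divided by kilobases of exon. In cold-dissociated C57BL/6J suspensions Ass1 led with 1313 ± 168 (SD, n = 3), followed by Miox with 731 ± 5.49, Gatm with 477 ± 70.3, Fbp1 with 369 ± 4.37, G6pc with 346 ± 23.5, Pck1 with 313 ± 51.1 and Pcx with 234 ± 33.2. The libraries of Fbp1 overlapped with those of G6pc, those of G6pc with Pck1 and those of Pck1 with Pcx, but Fbp1 and Pck1 did not overlap. Intact Balb/c male kidney had Ass1 at 534 ± 37.4, Miox at 476 ± 62.8 and Fbp1 at 442 ± 56.8 within reach of each other, and G6pc at 142 ± 3.26 and Pcx at 133 ± 16.0 at the low end. Intact Balb/c female kidney had Miox first with 777 ± 25.8, then Pck1 with 626 ± 173, whose 3 libraries spread widely, and Ass1 below Fbp1 and Gatm with 442 ± 35.3, above G6pc with 227 ± 46.4 and Pcx with 111 ± 16.4. Pseudogene Gm5424 stood at 22.5 to 55.9 CPM per kilobase in these groups. Library types differ between the experiments (rRNA depletion against poly(A) selection), so these orders were not compared by a test.

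The bulk libraries of the C57BL/6J suspensions ask how warm dissociation changes the whole suspension. Of the 7 genes, Gatm and Fbp1 were lower after warm dissociation and none was higher, where 8.68% of 14102 genes were called, 5.42% higher and 3.26% lower (adjusted p below 0.05, edgeR quasi-likelihood test, Benjamini-Hochberg over all genes tested, two-sided, here and below). Gatm was at 1245, 1385 and 1660.0 CPM in the cold suspensions and 1036, 1012 and 1080.4 in the warm ones, which did not overlap (log2 fold change -0.49 ± 0.11, adjusted p = 0.0144). Fbp1 was at 624, 622 and 636 in the cold and 552, 513 and 507 in the warm suspensions, again without overlap (log2 fold change -0.29 ± 0.07, adjusted p = 0.018). Log2 fold changes of the other 5 ran from -0.23 (Pcx) to 0.13 (Pck1) and did not pass. PT markers moved too: 4 of 15 were lower and none higher, and their summed level was 33967 to 35777 in the cold and 29631 to 32202 CPM in the warm suspensions, while 7 of 7 connecting tubule markers and 8 of 10 intercalated cell markers were higher. The part of cell composition in the 2 calls was not tested. The call of Fbp1 was lost without cold replicate 2 or warm replicate 2 or 3, and that of Gatm without warm replicate 1. In the pathway lists, which hold 69 further genes of glucose, ammonia, arginine, creatine and inositol metabolism and their regulators, 7 of 67 tested genes were higher and 5 lower, led by the kinase Sik1 (0.78 ± 0.08), the inositol transporter Slc2a13 (0.74 ± 0.12) and the insulin receptor substrate Irs2 (0.68 ± 0.15).

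Cold-dissociated Balb/c female suspensions, set against intact kidney, held more Gatm, Ass1 and Miox, and no member was lower; 20% of 16538 genes were called in this comparison, 7.91% higher and 12.1% lower. Gatm was at 1477, 1538 and 1506 CPM in intact kidney and 2124, 2230.5 and 2439.7 in suspensions (log2 fold change 0.58 ± 0.07, adjusted p = 0.000418). Ass1 was at 1134, 1098 and 972 in intact kidney and 1344, 1339 and 1341 in suspensions (log2 fold change 0.31 ± 0.08, adjusted p = 0.0169), and Miox at 1329, 1246 and 1273 and 1528, 1438 and 1602 (log2 fold change 0.23 ± 0.07, adjusted p = 0.0407). None of the 3 genes overlapped between the groups. Pck1, Fbp1, G6pc and Pcx had log2 fold changes between -0.03 and 0.26 that did not pass. The PT markers gave no common direction (3 higher, 4 lower of 15). In the suspensions 9 of 9 fibroblast, 9 of 11 endothelial and 6 of 10 thin limb markers were lower and none higher. Higher were 7 of 7 connecting tubule, 7 of 7 B cell and 5 of 9 podocyte markers with none lower, 6 of 9 macrophage markers with 1 lower and 7 of 11 mural markers with 3 lower. The part of cell composition in the 3 calls was not tested. The Ass1 call was lost without suspension replicate 1 (adjusted p = 0.0557), and the Miox call held in 2 of the 6 fits that left out a library. Among pathway genes 12 of 67 were higher and 10 lower, the 3 furthest being arginase 2 (Arg2, -2.84 ± 0.13), the glutamine transporter Slc38a3 (-2.55 ± 0.12) and agmatinase (Agmat, -2.01 ± 0.15).

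Within PT-like sums of fresh C57BL/6J cells, warm dissociation was accompanied by more G6pc and less Pcx, the enzymes at the 2 ends of the glucose pathway, while 6.67% of 9829 genes were called, 2.8% higher and 3.88% lower. G6pc was at 199, 201 and 252 CPM after cold and 277, 321 and 278 after warm dissociation (log2 fold change 0.49 ± 0.12, adjusted p = 0.0399). Pcx was at 308, 283 and 369.8 CPM after cold and 194, 223 and 239.8 after warm dissociation (log2 fold change -0.48 ± 0.13, adjusted p = 0.0456). Neither gene overlapped between the groups, but both calls rested on single libraries: that of G6pc held in 2 and that of Pcx in 1 of the 6 fits that left out a library. The background rested on single libraries too: it was 0.588% without cold replicate 2, 0.659% without warm replicate 1, 1.02% without cold replicate 3, 1.38% without warm replicate 3 and 14.9% without cold replicate 1. Ass1 was 5755, 4523 and 4988 CPM in the cold and 6869.6, 5697 and 6169.9 in the warm libraries, with a log2 fold change of 0.35 ± 0.10 that did not pass (adjusted p = 0.0594). Gatm, which was lower in the warm bulk suspensions, had a log2 fold change of -0.20 ± 0.14 in PT-like sums (adjusted p = 0.407). The share of S3-like barcodes among PT-like ones was 13.9% to 23.7% in the cold and 27.2% to 40.2% in the warm libraries, and its part in the calls was not tested. In the same sums 2 of 15 PT markers were higher and 3 lower. Of other markers tested, 5 of 6 podocyte and 1 of 1 mural markers were lower and 1 of 3 thin limb markers was higher. The part of these markers was not tested either. Of 20 further genes of glucose synthesis, 7 were higher and none lower after warm dissociation, among them the mitochondrial oxoglutarate carrier Slc25a11 (0.73 ± 0.14). These calls come from the same fit, whose background rested on single libraries. In the bulk suspensions 0 of these 20 genes were higher and 1 was lower, with a median log2 fold change of -0.057. There G6pc was at -0.15 ± 0.09 and Pcx at -0.23 ± 0.11, and neither passed. Over all pathway lists in the PT-like sums 9 of 60 genes tested were higher and 4 lower. The amino acid transporter Slc7a8 was lower (-1.10 ± 0.15; 142 ± 25 CPM in the cold and 63.4 ± 5.88 in the warm libraries), and the fasting regulator Ppara higher (0.88 ± 0.23).

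Methanol fixation was compared with fresh profiling of the same kind of suspension, and these comparisons share their fresh libraries with the ones above. In PT-like sums Pck1 fell with fixation of warm-dissociated cells. It stood at 653, 822 and 785 CPM in fresh and 437, 510.2 and 449 in fixed libraries, without overlap (log2 fold change -0.70 ± 0.12, adjusted p = 0.00357), and it was the only member called, where 12.1% of 9092 genes were (4.71% higher, 7.41% lower). After cold dissociation it was at 752, 807 and 572 CPM fresh and 582, 564 and 427 fixed, which overlapped, with a log2 fold change of -0.38 ± 0.14 that did not pass (adjusted p = 0.0683); no member was called there by edgeR or DESeq2 (2 of 7 at an unadjusted p under 0.05), and 22% of 9758 genes were. The 2 fixation effects did not differ detectably for any member: it was furthest from 0 for G6pc, at -0.51 ± 0.21 (adjusted p = 0.581; the 1 of 7 members at an unadjusted p under 0.05), and for Pck1 was -0.29 ± 0.20 (adjusted p = 0.804). In that interaction test 0 of 10000 genes were called by edgeR (762 at an unadjusted p under 0.05, and 5 by DESeq2). Barcode names in the files tie fresh and fixed libraries to 1 suspension each. With that replicate block in the fit, Pck1 (-0.37 ± 0.08, adjusted p = 0.000632), Gatm (-0.33 ± 0.07, adjusted p = 0.00127) and Fbp1 (0.19 ± 0.07, adjusted p = 0.0401) were called after cold dissociation, and Pck1 (-0.69 ± 0.06, adjusted p = 7.59e-06), Ass1 (-0.22 ± 0.06, adjusted p = 0.0161), G6pc (-0.37 ± 0.08, adjusted p = 0.00493) and Gatm (-0.25 ± 0.05, adjusted p = 0.0038) after warm dissociation. With the block 35.7% and 18.9% of all genes were called (3487 and 1717, against 2145 and 1102 without it). In the same PT-like sums, 9 of 15 PT markers were lower after cold and 11 of 15 after warm dissociation and none was higher, and markers of other cell classes summed to 4059.7 to 4940.3 CPM in fixed and 2368 to 2511 CPM in fresh cold libraries; their part in these results was not tested. The glycolytic kinase Pgk1 was the pathway gene furthest from 0 in both, at 1.09 ± 0.22 and 1.40 ± 0.17.

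In endothelial-like sums after cold dissociation 5 of the 7 genes were higher in fixed libraries and none lower (26.8% of 4530 genes called): Pcx (1.70 ± 0.42, adjusted p = 0.00753), G6pc (1.51 ± 0.43), Fbp1 (1.46 ± 0.31), Miox (1.38 ± 0.27) and Pck1 (0.96 ± 0.35). Miox, for example, was at 329, 503 and 665 CPM in fresh and 988, 1687 and 1375 CPM in fixed endothelial-like sums. Genes low in the fresh sums, such as G6pc and Pcx, may have passed the count filter only through the fixed libraries. Their direction may thus have been fixed. Of the PT markers tested in these endothelial-like sums, 6 of 11 were higher as well. The summed level of PT markers was 827 to 1629 CPM fresh and 1717 to 3577 CPM fixed. The part of free PT-derived RNA was not tested. With the replicate block all 7 were called higher, Ass1 (0.82 ± 0.16, adjusted p = 0.000241) and Gatm (0.82 ± 0.16, adjusted p = 0.000311) in addition (32.9% of all genes called in that fit). Without cold fresh replicate 2 or fixed replicate 3 the count fell as low as 2 members. In macrophage-like sums after cold dissociation Fbp1 (1.05 ± 0.27) and Miox (1.14 ± 0.26) were higher, 2 of the 6 members tested, where 26.2% of genes were called; 4 members were called with the replicate block (30.8% of genes). After warm dissociation Miox was higher in endothelial-like sums (0.69 ± 0.18, adjusted p = 0.0266; 1 of 5 tested, background 11.5%), and no member of 5 was called by edgeR in macrophage-like sums or by DESeq2, nor at an unadjusted p under 0.05 (background 7.92%). Summed over all barcodes, Fbp1 was higher in fixed libraries after cold dissociation (0.53 ± 0.11, adjusted p = 0.00898; background 27.9%, 14.3% higher) and Pck1 lower after warm dissociation (-0.51 ± 0.12, adjusted p = 0.0214; background 17.3%, 9.77% lower); the call of Pck1 was lost without warm fresh replicate 2 or 3 or fixed replicate 3. With the replicate block 4 and 3 members were called (35.7% and 17.8% of genes).

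Cryopreserved C57BL/6J suspensions held very little of these transcripts. Over all barcodes, Miox went from 3841, 2791 and 2956 CPM in fresh cold-dissociated libraries to 26.0, 27.0 and 34.0 CPM in cryopreserved ones, and Ass1 from 3857, 2760.0 and 3204 to 67.7, 62.5 and 61.7 CPM. Gatm went from 1590.1, 1838 and 2279 to 83.3, 45.8 and 70.5 CPM. Fresh and cryopreserved libraries were far apart for every member, and all 7 were called lower after cold and after warm dissociation, where 50.7% and 59.8% of genes were called in either direction (28.9% and 33.9% lower). For Pck1, G6pc and Pcx that direction was fixed, as given below. The log2 fold changes after cold dissociation were -6.96 ± 0.22 for Miox, -6.61 ± 0.21 for Fbp1, -5.86 ± 0.18 for Ass1 and -5.04 ± 0.26 for Gatm, and after warm dissociation -6.74 ± 0.23, -6.35 ± 0.18, -5.99 ± 0.16 and -5.29 ± 0.19 in that order. Pck1 and G6pc were listed at 0 in all 6 cryopreserved C57BL/6J libraries, and Pcx in 4 of them. Pck1, G6pc and Pcx entered the tests only through the fresh libraries, so that their direction was fixed and their calls add nothing to the levels. Pcx had 12 UMIs over the cryopreserved libraries after cold and 16 after warm dissociation. In these files almost no gene is found in 1 to 9 barcodes of a library, so a gene listed at 0 had fewer than 10 barcodes with a UMI and need not be absent. With 9 UMIs put in for each library at 0 (1 UMI in each of 9 barcodes, which is an assumption and no strict bound, since a barcode may hold more), Pck1 would be at 4.94 CPM after cold and 6.05 CPM after warm dissociation, 90.3-fold and 98.5-fold below the fresh libraries. For G6pc the same assumption gives values 27.7-fold and 38.1-fold below, and for Pcx 38.4-fold and 22.7-fold with its counted UMIs included. PT markers left with them: their sum was 8079 to 9190.3 CPM in fresh and 24.7 to 58.5 CPM in cryopreserved cold libraries, and the PT-like share of barcodes was 58.5% to 69.9% and 0.123% to 0.705%. Only 3, 2 and 7 PT-like barcodes per library were found after cold and 7, 6 and 8 after warm dissociation, too few for a test within the class.

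**Figure D4:**
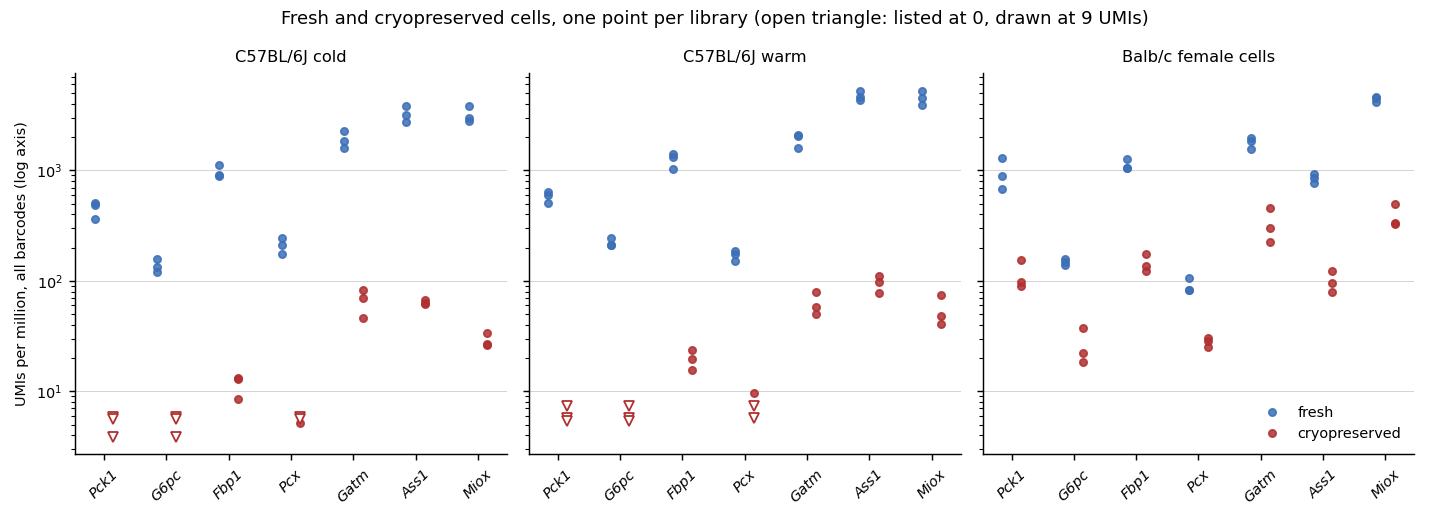
Level of each gene over all barcodes in CPM (log axis), 1 point per library, in fresh (blue) and cryopreserved (red) cells of 3 suspensions; open triangles are libraries listed at 0, drawn at 9 UMIs. All cryopreserved libraries lie below all fresh ones, Miox at 26.0, 27.0 and 34.0 CPM in cryopreserved cold-dissociated C57BL/6J libraries and at 327, 492 and 333 CPM in cryopreserved Balb/c female libraries.

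In the Balb/c female suspensions, stored for 2 weeks and spun at 1200g rather than 400g on thawing, all 7 genes were also lower over all barcodes (58% of genes called). The log2 fold changes ran from -2.10 ± 0.14 for Pcx to -3.93 ± 0.18 for Miox. Enough PT-like barcodes remained here (372, or 7.74% to 10.2% of a library, against 46.4% to 50.7% fresh) to ask whether the level within the class changed too. It was lower for 6 of the 7 genes, where 28.8% of 9977 genes were called and 15.3% were lower. Miox was at 7840.3, 7101 and 8079 CPM fresh and 2689.6, 2996 and 3400.1 cryopreserved (log2 fold change -1.65 ± 0.11, adjusted p = 3.96e-09), and Ass1 at 1457, 1442 and 1485 and 619, 705 and 884 CPM (-1.31 ± 0.12, adjusted p = 1.78e-07). Pck1 was at 1674, 2015 and 1197 CPM fresh and 682, 992 and 1007 CPM cryopreserved (-1.18 ± 0.17, adjusted p = 2.75e-05). Fresh and cryopreserved libraries did not overlap for these genes, nor for Fbp1 (-1.03 ± 0.11), Gatm (-0.78 ± 0.14) and G6pc (-0.72 ± 0.14). Pcx, at 153, 163 and 137 CPM fresh and 132, 158 and 178 CPM cryopreserved, overlapped and did not pass (-0.28 ± 0.13, adjusted p = 0.125). All 6 calls held in each of the 6 fits that left out a library. Markers of other classes in the same PT-like sums were at 5852 to 8376 CPM cryopreserved and 3667 to 4286 CPM fresh. Of these, macrophage markers made up 3502 to 5849 CPM cryopreserved and 1717 to 2019 CPM fresh. Thin limb markers were higher for 5 of 6 tested and lower for 1, while 3 of 3 connecting tubule markers were lower. Of 13 PT markers tested, 8 were lower and 1 higher. The part of these markers in the calls was not tested. Within the class, the 7 genes together were at 15201 to 15588 CPM in fresh and 12680.2 to 13041 CPM in cryopreserved S1/S2-like clusters (24, 57 and 25 cryopreserved barcodes). They were at 16356 to 16880.1 and 5180.0 to 7497 CPM in the same order in the PT-like clusters that had no segment name (98, 101 and 67 cryopreserved barcodes). Mean Pck1 and Pcx were not lower in the cryopreserved S1/S2-like sums (1407 fresh against 1599.7 CPM and 165 against 290.1 CPM). These are descriptions with no test. Pathway genes were lower on balance, 22 of 60 against 6 higher, with guanidinoacetate methyltransferase (Gamt), which follows Gatm in creatine synthesis, at -1.64 ± 0.18 and arginase 2 (Arg2, 1.48 ± 0.41) and inositol-3-phosphate synthase (Isyna1, 1.43 ± 0.33) among the higher ones.

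Outside the PT, cryopreserved libraries held less of these genes as well. In C57BL/6J endothelial-like sums after cold dissociation Miox (-3.84 ± 0.29), Fbp1 (-3.89 ± 0.42), Gatm (-3.80 ± 0.42) and Ass1 (-2.60 ± 0.26) were lower (background 6.87%). There 8 of 8 PT markers tested were lower too. In the cryopreserved sums, however, 12 to 13 PT markers per library were at 0, and all PT markers together held 13.9 to 15.9 CPM. The tested markers may have passed the count filter only through the fresh libraries, so their direction may have been fixed. In macrophage-like sums Miox (-4.76 ± 0.36), Fbp1 (-4.75 ± 0.43), Ass1 (-4.21 ± 0.35) and Gatm (-1.47 ± 0.23, adjusted p = 2.99e-05) were lower (background 16.6%). The difference between the genes was not tested. After warm dissociation the macrophage-like values were like those after cold dissociation, with Gatm at -1.46 ± 0.21 and Miox at -4.22 ± 0.33 (background 21.4%). The endothelial-like values were not, with Gatm at -1.99 ± 0.42, Ass1 at -2.13 ± 0.22 and Miox at -3.36 ± 0.26 (background 7.31%). Pck1, listed at 0 in all cryopreserved C57BL/6J libraries, entered these 4 comparisons only through the fresh libraries, so that its direction there was fixed and neither its fold nor its call is read. Counts of Fbp1, Miox and Ass1 were low as well. Over whole cryopreserved libraries Fbp1 was in 18, 18 and 19 barcodes after cold and 25, 22 and 21 after warm dissociation. The 7 genes together were at 125 to 187 CPM in endothelial-like cold sums. Genes this low may have passed the count filter only through the fresh libraries. Their direction may thus have been fixed, and their folds are not set against that of Gatm. In Balb/c female libraries 5 members were lower in endothelial-like sums (Miox -2.64 ± 0.29, Fbp1 -3.09 ± 0.40; background 2.66%) and 5 in macrophage-like sums (background 7.5%). PT markers were lower with them, 7 of 8 tested in endothelial-like and 6 of 6 in macrophage-like sums. All PT markers together held 138 to 279 CPM in these cryopreserved endothelial-like and 172 to 288 CPM in the macrophage-like sums. Markers this low, and members with low counts, may have passed the count filter only through the fresh libraries. Their direction may have been fixed, and these female marker counts are not read. In C57BL/6J macrophage-like sums after cold dissociation 6 of 6 PT markers tested were lower. After warm dissociation 5 of 5 were lower in endothelial-like and 4 of 4 in macrophage-like sums. In these cryopreserved C57BL/6J sums 10 to 14 PT markers per library were at 0. Markers this low may have passed the count filter only through the fresh libraries. Their direction may thus have been fixed, and these C57BL/6J marker counts are not read. The part of PT-derived RNA in the values of the 7 genes was not tested. Among the 5 members in the Balb/c female macrophage-like sums, with the limit above for low ones, Gatm had the mildest fold. It was at 746, 762 and 826 CPM fresh and 497, 505 and 642 CPM cryopreserved (-0.50 ± 0.15, adjusted p = 0.0489). That call held in 1 of the 6 fits that left out a library. In the endothelial-like sums of the same libraries Ass1 (-1.68 ± 0.29) was milder than Gatm (-2.17 ± 0.33).

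Among the bulk and PT-like comparisons, those of nuclei with cells had the widest range of log2 fold changes among the members. In both Balb/c experiments Gatm, Miox, Ass1, Fbp1 and Pck1 were lower in PT-like 3x500g nuclei than in PT-like cells, while G6pc and Pcx were not. The background was large: 80.1% of 12112 genes were called in the male and 85.7% of 12510 in the female experiment (28.2% and 40.7% lower, 51.9% and 45% higher), with median log2 fold changes over all genes of 0.76 and 0.16. In the male libraries 5145 of 16524 listed genes were at 0 over all cells, against 322 over all nuclei. Those that were tested entered through the nuclei, so that their direction was fixed, and they can raise the male share of higher genes. In males Gatm was at 2998, 3453 and 3402 CPM in cells and 561, 429 and 568 in nuclei (log2 fold change -3.13 ± 0.19, adjusted p = 1.02e-08), and Pck1 at 542, 540.3 and 737 and 209, 136 and 158 CPM (-2.31 ± 0.19, adjusted p = 1.87e-07). Miox (-2.26 ± 0.20), Fbp1 (-2.21 ± 0.18) and Ass1 (-2.10 ± 0.23) were lower by similar amounts. In females Miox was at 7840.3, 7101 and 8079 CPM in cells and 525, 799 and 591 in nuclei (-4.36 ± 0.18, adjusted p = 1.06e-09), Gatm at 2884, 3046 and 3147 and 467, 308 and 399.8 CPM (-3.71 ± 0.18, adjusted p = 5.67e-09), and Pck1 at 1674, 2015 and 1197 and 966, 879.8 and 1043 CPM (-1.54 ± 0.20, adjusted p = 2.24e-05). Fbp1 (-2.52 ± 0.12) and Ass1 (-2.54 ± 0.15) lay between them. For all 5 genes cells and nuclei did not overlap in either experiment. In the same sums PT markers were at 11525 to 13036 CPM in male cells and 20404 to 21515 in male nuclei, and at 12029 to 13485 and 19017 to 21214 CPM in females. Of these markers 7 of 15 were called higher and 3 lower in males, and 4 of 14 higher and 6 lower in females. Endothelial markers were higher for 8 of 9 and 8 of 11 tested, and macrophage markers lower for 4 of 6 and 5 of 8. S3-like clusters held 23.0% to 29.0% of PT-like barcodes in male cells and 14.1% to 18.1% in male nuclei, and none in female cells against 20.3% to 24.2% in female nuclei. The part of these markers and clusters in the results was not tested.

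G6pc was at 152, 198 and 200.4 CPM in male cells and 488, 274 and 276 in male nuclei, a log2 fold change of 0.45 ± 0.23 that did not pass (adjusted p = 0.0923). In females it was at 303, 236 and 251 CPM in cells and 551, 395 and 486 in nuclei (0.10 ± 0.15, adjusted p = 0.541). The CPM of cells and nuclei did not overlap for G6pc or Pcx in either experiment, but the fitted values are scaled by TMM factors, and the tests did not pass except for Pcx in females. Pcx was higher in female nuclei, at 153, 163 and 137 CPM in cells and 261, 345 and 346 in nuclei (log2 fold change 0.29 ± 0.13, adjusted p = 0.0468), though the call was lost without cell replicate 1 or 3 or nucleus replicate 3; in males it was 0.23 ± 0.14 (adjusted p = 0.151). Nuclear libraries count intronic as well as exonic reads, and the values went with the span of a gene: genes of at most 5 kb had a median log2 fold change of -1.08 in males and -2.17 in females, those of 5 to 20 kb -0.21 and -0.98, those of 20 to 100 kb 0.95 and 0.61, and those over 100 kb 3.30 and 2.46. Against genes of their own length class, 4 members lay below the lower quartile in both experiments: Pcx, the only one over 100 kb (lower quartile 1.79 in males and 1.52 in females), Fbp1 and Ass1 (-0.248 and -0.491), and Gatm (-1.53 and -2.42). Pck1, in the class of Gatm, was below it in males only, and Miox, the shortest member, in females only (-2.85 and -3.90). G6pc was above the median of its class in both. RefSeq also gives Pcx a start inside its GENCODE span, with an upstream window at chr19:4594069-4594318. Counted from there, Pcx would fall in the class of 20 to 100 kb and lie above its lower quartile in both experiments. Which start is used in these cells was not tested. The male medians and quartiles can include genes listed at 0 in all male cells, whose direction was fixed, so the place of a member in its male class is less certain. The part of gene length and read counting in these values was not tested.

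Whether the difference between nuclei and cells itself differed between the experiments was tested with an interaction term over both, in which sex, age and chemistry cannot be told apart. Miox was the member called: its fold was -2.17 ± 0.31 further down in females (adjusted p = 2.53e-05), where 48% of 12286 genes were called, 42.6% lower and 5.39% higher. Genes listed at 0 over all male cells that were tested here had a fixed direction in the male experiment. They can raise the share of lower genes in this test and pull down its median. Scaling mattered too, with a median over all genes of -0.81 under TMM and -0.31 under RLE factors. With RLE factors Miox was at -1.66 and still called (adjusted p = 0.000194), Pck1 moved from 0.69 ± 0.29 (adjusted p = 0.0637) to 1.21 (adjusted p = 0.00236), and Pcx turned from -0.01 to 0.51 (adjusted p = 0.0387). The other 4 were not called under either scaling, and of these G6pc turned from -0.43 to 0.083 and Fbp1 from -0.38 to 0.13.

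Of the 20 further enzymes and transporters of glucose synthesis, 18 were lower in male and 20 in female PT-like nuclei and none higher, such as Pgam1 in females (574 ± 39.5 CPM in cells, 23.2 ± 2.34 in nuclei, -5.40 ± 0.12) and Gapdh (2899 ± 51.9 against 7.81 ± 3.30 CPM, -9.31 ± 0.29). Of the 16 regulators, 9 in males and 11 in females were higher in nuclei, 3 and 2 lower, against 51.9% and 45% of all genes higher and 28.2% and 40.7% lower. The male values can include genes listed at 0 in all male cells, whose direction was fixed. The proton exchanger Slc9a3 was at 2.64 ± 0.631 CPM in female cells and 274 ± 20.4 in nuclei (5.98 ± 0.15). In males, ornithine aminotransferase (Oat) had 367 UMIs in PT-like cells and 0 in nuclei, and Slc9a3 and Slc38a3 had 0 UMIs in cells against 2042 and 581 in nuclei, so that no fold is given for them.

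The 3 nuclear preparations of Balb/c female kidney were compared through the same 3x500g libraries. Between 1x2000g and 3x500g nuclei no member was called by edgeR or DESeq2 (0 of 7 also at an unadjusted p under 0.05), with log2 fold changes from -0.21 (Pcx) to 0.32 (Gatm), where 24.5% of 15174 genes were called (15.2% higher, 9.34% lower). Sucrose nuclei held more Miox and Gatm and less Pcx than 3x500g nuclei (background 36.6%, 18.9% higher and 17.7% lower). Miox was at 525, 799 and 591 CPM in 3x500g and 1313, 869 and 1193 in sucrose nuclei (0.80 ± 0.17, adjusted p = 0.00784), and Gatm at 467, 308 and 399.8 and 654, 648 and 504 CPM (0.59 ± 0.18, adjusted p = 0.0292). Pcx was at 261, 345 and 346 and 218, 217 and 239.8 CPM (-0.52 ± 0.11, adjusted p = 0.00629). The groups did not overlap for these genes, and the Gatm call held in 2 of the 6 fits that left out a library. Of the 16 regulators of these pathways 10 were lower and none higher in sucrose nuclei, such as the cAMP coactivator Crtc2 (29.0 ± 3.04 CPM in 3x500g and 13.9 ± 1.77 in sucrose nuclei, -1.08 ± 0.11), while the glycolytic enzyme Tpi1 (0.70 ± 0.08) and the cytosolic malate dehydrogenase Mdh1 (0.65 ± 0.11) were higher. In the same PT-like sums 7 of 10 endothelial, 6 of 7 fibroblast and 5 of 8 macrophage markers tested were higher in sucrose nuclei (1 macrophage marker was lower), while 6 of 15 PT markers were lower and none higher. The share of S1/S2-like barcodes among PT-like ones was 13.5% to 14.4% in 3x500g and 16.2% to 24.6% in sucrose nuclei. The part of these markers and shares in the 3 calls was not tested.

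**Figure D5:**
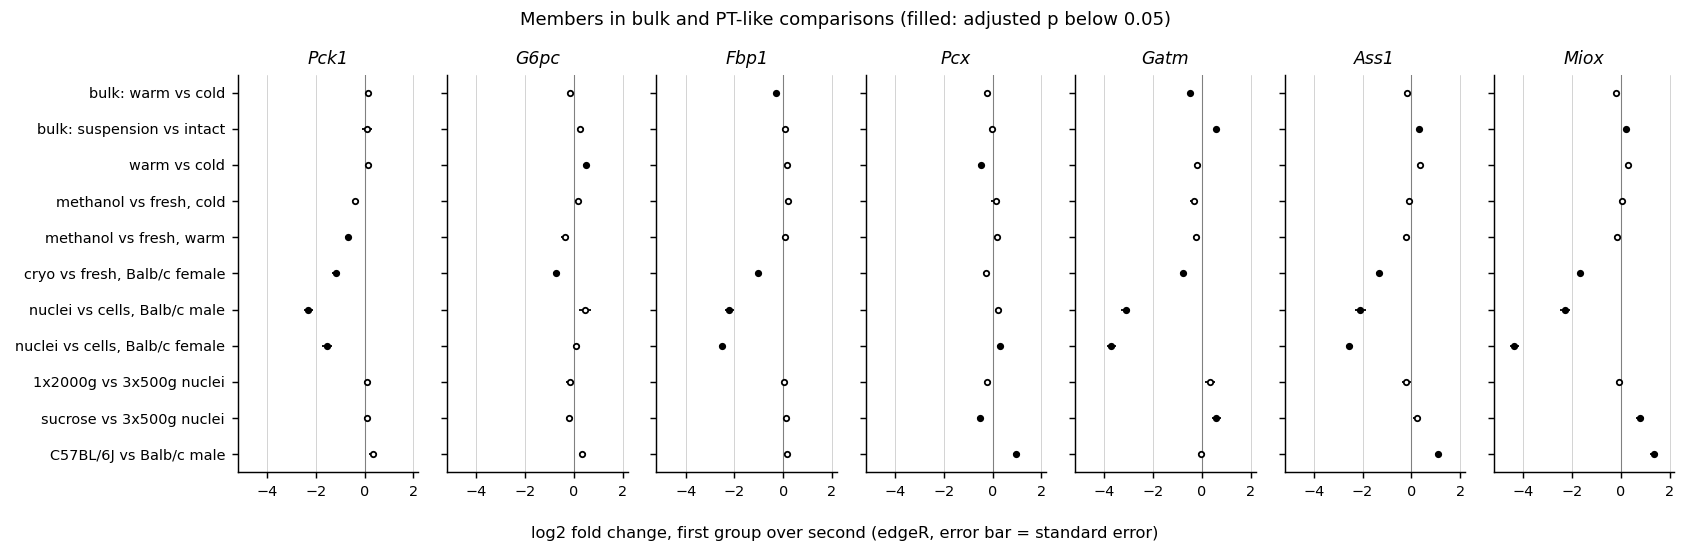
Log2 fold change of each gene in the bulk and PT-like comparisons, first named group over second, with standard error bars; filled points passed an adjusted p of 0.05 (edgeR). The nuclei rows hold the values furthest from 0, down to -4.36 for Miox in Balb/c females, with G6pc and Pcx near 0 in the same rows.

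Cold-dissociated fresh cells of C57BL/6J and Balb/c males were compared across experiments. Strain, the AFAPIL.1DEL designation of the C57BL/6J mice, age, litter and run change together there. Miox, Ass1 and Pcx were higher in C57BL/6J PT-like sums and no member was lower (10.8% of 8887 genes called, 6.35% higher and 4.46% lower). Genes listed at 0 over all Balb/c male cells that were tested here entered through the C57BL/6J libraries. Their direction was fixed, and they can raise the share of higher genes. Miox was at 5724, 4567 and 4586 CPM in C57BL/6J and 2119.7, 2428 and 1708 CPM in Balb/c (1.36 ± 0.16, adjusted p = 3.75e-05), and Ass1 at 5755, 4523 and 4988 and 2700.4, 2610.1 and 2399 CPM (1.10 ± 0.13, adjusted p = 4.87e-05). Pcx was at 308, 283 and 369.8 and 187, 167 and 174 CPM (0.98 ± 0.14, adjusted p = 0.000256). The libraries of the 2 strains did not overlap for any of the 3, and the calls held in all 6 fits that left out a library. The Ass1 pseudogene Gm5424 stood at 567 ± 185 against 251 ± 23.8 CPM in the same order. Pck1, G6pc, Fbp1 and Gatm had log2 fold changes from -0.03 to 0.35 and did not pass. Of the PT markers, 8 of 15 were higher in C57BL/6J and 1 lower. Of the macrophage markers tested 3 of 5 were higher and none lower, while 1 of 7 ascending loop, 1 of 3 thin limb and 1 of 5 distal convoluted tubule markers were lower. Their part in the calls was not tested. Slc7a8 was the pathway gene called with the widest measured difference (142 ± 25 against 53.4 ± 12.5 CPM, 1.55 ± 0.19); Sik1 and Ppara were further apart in the fit but had 0 and 9 UMIs in the Balb/c sums.

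Across the 33 libraries with at least 50 PT-like barcodes, the members formed one set that varied together and 3 that did not join it. Pearson r of log2(CPM + 1) between Fbp1, Gatm, Ass1 and Miox was 0.78 to 0.95, while G6pc was negatively related to each of them (r between -0.61 and -0.77). Pcx and Pck1 had r between -0.41 and 0.35 with all others. The libraries share experiment, chemistry and kind of preparation, and they include cells and nuclei, so these values are descriptions with no test. Among 8397 genes with a mean of at least 10 CPM, the closest to Fbp1 was Sucla2 (r = 0.982), to Gatm Ftl1 (r = 0.981), to Miox Gamt (r = 0.975) and to Ass1 Rpl29 (r = 0.959). For G6pc it was Slc13a1 (r = 0.884), for Pck1 Slc22a8 (r = 0.867) and for Pcx Zfp672 (r = 0.855). The next genes in order were Qdpr and Ppa2 for Fbp1, Txndc17 and Vma21 for Gatm, Gstk1 and Mrps35 for Miox, Cisd3 and Bloc1s1 for Ass1, Orc4 and St6galnac3 for G6pc, Glud1 and Cbr1 for Pck1, and Aatf for Pcx.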

How the data were processed

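The authors aligned bulk reads with STAR 2.6.1a to GRCm38 and deposited featureCounts counts per gene; Picard marked duplicates, but whether these were left out of the counts, and the strand setting, are not given in the sources used here. Droplet reads were counted with Cell Ranger 2.1.1 (exons for cells, exons and introns for nuclei), filtered on barcodes and genes, and deposited by the authors as UMI counts. From these counts, barcodes were clustered (Leiden resolution 2, 5 sets of libraries, members and pathway genes left out) and clusters named from at least 3 markers; doublets were marked, and their removal was an alternative. UMIs were summed per class and library (at least 10 barcodes) and compared in 26 two-sided tests and 2 interaction tests with edgeR 4.0.16 in R 4.3.3 (TMM factors, quasi-likelihood test, Benjamini-Hochberg adjustment within a comparison); DESeq2 1.42.0 was an alternative. The tests were also run on simulated data. Replicates are separate samples by the labels. Barcode prefixes tied C57BL/6J droplet libraries of 1 suspension. Deviations of libraries of 1 suspension correlated with r of 0.168, 0.122 and 0.336 after cold and 0.107, 0.224 and 0.149 after warm dissociation (PT-like, fresh and fixed), but by -0.077 to 0.089 in endothelial-like fixed warm cells and -0.034 to 0.013 in cryopreserved warm libraries (all barcodes, endothelial-like). The members, the lists and the rule for naming genes (all members; up to 3 called pathway genes per comparison; the 3 genes most like each member, of which 1 is not reported here) were chosen with earlier results of these data known. Each group had 3 libraries, and p-values measure the spread between them. PT-like barcodes of cryopreserved C57BL/6J cells were too few for 2 planned comparisons, which were not fitted.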

Additional observations from a re-analysis of the deposited data

Results flagged for a closer look

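The difference between PT-like nuclei and PT-like cells was further down for Miox in the Balb/c female than in the Balb/c male experiment, by a log2 value of -2.17 (edgeR interaction test, adjusted p = 2.53e-05). What drew attention to it was a test of the difference between the 2 experiments itself; it was called in all 12 fits that left out a library and with RLE factors or DESeq2 (-1.66 each). Miox was 1 of 7 members called, where 48% of 12286 genes were (42.6% lower, 5.39% higher) and the median over all genes was -0.81. Genes listed at 0 over all male cells can raise that lower share and pull down that median. Sex, age, chemistry and run cannot be told apart in this comparison. Groups of 3 libraries were too small for a test for outlying samples.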

How the results depend on the processing

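Of 2422 member log2 fold changes under an alternative, 2210 kept their direction and side of the threshold, 84 lost the call, 63 gained it and 65 had the other sign. Of these 65, 60 were called neither way and 5 were called under the alternative, all 5 Pcx in the interaction test of nuclei against cells: 0.51 with RLE factors, 0.51 with DESeq2, and 0.64, 0.62 and 0.54 without 1 nucleus library each, against -0.0069. The cause was not tested. There G6pc turned from -0.43 to 0.083 with RLE factors and 0.078 with DESeq2, Fbp1 from -0.38 to 0.13 with either, and Pcx to 0.018 without a filter, none called. Other uncalled values that turned, apart from leaving out a library, were Gatm in fixed cold libraries over all barcodes (0.00064 with members out of the total, 0.0073 with the block), Miox in fixed warm ones (-0.14 with 9 UMIs in place of 0) and Gatm in macrophage-like fixed warm cells (0.020 without marked doublets). Of 378 counts of called members, 311 stayed within 1.5 times the reported count. Asking for an absolute log2 fold change of at least 1 left 0 members in the bulk comparisons, in PT-like warm against cold cells, PT-like fixed warm cells, sucrose nuclei, all barcodes of fixed libraries and endothelial-like fixed warm cells. Without a filter on low counts 1 member was called in warm against cold PT-like cells, 2 over all barcodes of fixed cold libraries and 0 in endothelial-like fixed warm cells. In fixed cold libraries over all barcodes DESeq2 called 3 members, RLE factors 2 and 9 UMIs in place of 0 also 2. In endothelial-like sums DESeq2 and removal of marked doublets each called 3 after cold dissociation, and removal called 2 and Leiden resolution 1 called 0 after warm dissociation. The interaction test called 3 members with DESeq2, 3 with RLE factors and 2 at resolution 1. RLE factors also moved the share of higher calls among all genes there from 662 of 5900 to 1710 of 4669.

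Leaving out 1 library at a time gave counts of called members of 1 to 2 and 1 to 4 in the bulk comparisons (warm against cold, suspension against intact), 0 to 4 in PT-like warm against cold cells, 0 to 1 and 1 to 2 in PT-like fixed cold and warm cells, 6 in PT-like cryopreserved female cells, 5 to 6 and 5 to 7 in male and female nuclei, 0 in 1x2000g and 2 to 3 in sucrose nuclei, 3 to 4 between strains, 1 to 2 and 0 to 1 over all barcodes of fixed libraries, 7 in all 3 cryopreserved ones over all barcodes, 2 to 7 and 0 to 2 in endothelial-like and 1 to 5 and 0 in macrophage-like fixed cells, 4 to 6 in every endothelial- or macrophage-like cryopreserved comparison, and 0 and 1 to 3 in the interaction tests. Over all barcodes of cryopreserved C57BL/6J libraries the direction of Pck1, G6pc and Pcx was fixed, so the 7 there holds calls that were given in advance. The log2 fold change without 1 library at a time ran across 0 for Pck1 -0.12 to 0.25 and Pcx -0.16 to 0.055 in bulk suspension against intact kidney, for Pcx -0.15 to 0.24 and Miox -0.018 to 0.15 in PT-like fixed cold cells, for Fbp1 -0.017 to 0.18 in PT-like fixed warm cells, for Miox -0.17 to 0.089 in 1x2000g nuclei, for Fbp1 -0.026 to 0.21 in sucrose nuclei, for Fbp1 -0.020 to 0.22 and Gatm -0.17 to 0.11 in the strain comparison. It also did for Pck1 -0.16 to 0.056 and Gatm -0.13 to 0.16 in fixed cold libraries over all barcodes, for Ass1 -0.11 to 0.010 and Miox -0.13 to 0.094 in fixed warm libraries over all barcodes, for Gatm -0.44 to 0.18 in macrophage-like fixed warm cells, for Pcx -0.049 to 0.35 and Gatm -0.036 to 0.25 in the fixation interaction and for G6pc -0.59 to 0.49, Fbp1 -0.51 to 0.26, Pcx -0.089 to 0.64, Gatm -0.78 to 0.042 and Ass1 -0.61 to 0.31 in the nuclei interaction. The share of all genes called, against which the member counts are read, also moved by over 1.5 times when 1 library was left out: 0.588% to 14.9% in PT-like warm against cold cells, 9.24% to 24.6% and 5.86% to 13.7% in PT-like fixed cold and warm cells, 10.3% to 22.2% in 1x2000g nuclei, and 14.2% to 28.1% and 5.95% to 30.4% over all barcodes of fixed cold and warm libraries. In bulk warm against cold it was 5.43% to 6.37%. In endothelial- and macrophage-like sums it was 13.5% to 24.7% and 7.95% to 29.3% in fixed cold cells, 2.78% to 11.7% and 2.17% to 16.6% in fixed warm cells, and 1.07% to 3.08% and 3.81% to 7.47% in Balb/c female cryopreserved cells. In endothelial-like cryopreserved C57BL/6J cells it was 4.05% to 7.75% after cold and 4.40% to 5.36% after warm dissociation.

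The replicate block, chosen after seeing the data because barcode prefixes and not the labels pair the suspensions, called 3 and 4 members in PT-like fixed cold and warm cells, 4 and 3 over all barcodes, 7 in endothelial-like and 4 in macrophage-like fixed cold cells. In PT-like warm against cold cells, which are separate digestions that share only a number (r of 0.152, 0.0228 and -0.051, so the numbers were not found to pair them), a block over that number called 3 members in place of 2. It changed no count of called members in the other C57BL/6J droplet comparisons. There it moved the count of all genes called from 294 to 188 and 116 to 182 in endothelial- and macrophage-like fixed warm cells, and from 355 to 579 and 380 to 210 in endothelial-like cryopreserved cells after cold and warm dissociation. For the bulk and Balb/c comparisons no paired analysis was possible because neither labels nor barcode names tie a library to a suspension or animal of another group, although some of these groups were aliquots of shared suspensions in the study.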
